A study of Homo sapiens with 6 samples.

Results

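The 9 genes described here encode epithelial cell junction proteins and the splicing factors that go with them: CDH1, EPCAM, CLDN1, CLDN7, OCLN, TJP1, DSP, ESRP1 and ESRP2. They were taken by name from a list and matched to 1 Ensembl ID each among the 57773 genes of the count table. Poly-A RNA was measured in U251, an established human glioblastoma cell line, in 3 dishes of cells stably transduced with a lentivirus for PD-L1 (gene CD274) and in 3 dishes transduced with the empty vector. PD-L1 binds the inhibitory receptor PD-1 on T cells. Both kinds of cell carried a lentiviral insert, were at passage 5 to 10, and were harvested 12 h after passage in DMEM with 10% serum. Each group was 1 transduced line sampled in 3 dishes, so every test here weighs dish-to-dish spread alone. The comparison asks how the transcriptome differs when PD-L1 is overexpressed.

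Epithelial cells hold together through adherens junctions, tight junctions and desmosomes. E-cadherin, claudins and occludin span the membrane, and plaque proteins such as ZO-1 and desmoplakin tie them to actin or intermediate filaments. The ESRP proteins bind RNA and set the epithelial exon choice of many transcripts. Loss of these genes with gain of N-cadherin and vimentin is the usual definition of the epithelial-mesenchymal transition. Glial cells and gliomas are not epithelial, and N-cadherin is their usual classical cadherin.

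Total counts ranged from 15678989 to 22270509 per dish, so that 3 counts corresponded to 0.138 to 0.185 CPM (the reads of a gene relative to its TMM-scaled library total). CD274 stood at 1300 ± 61.4 CPM with PD-L1 and 2.41 ± 0.97 CPM with vector (mean ± SD, n = 3 each), the direction the labels give. Of 6 listed glial or neural stem markers, SOX2 had 42.8 ± 3.44 CPM with PD-L1 and 56.0 ± 7.65 CPM with vector. GFAP had only 1.70 ± 0.22 and 3.18 ± 0.56 CPM, and the whole list is summed below. Across all genes tested, 1384 of 15818 passed a false discovery rate (FDR) of 0.05, which is 8.75%. Of these calls 82.3% were lower in PD-L1 dishes, against 64.4% once an offset removed trends with GC content and length (the GC and length offset). PD-L1 dish 3 stood apart, since the count of calls rose to 3512 without it. PD-L1 dishes 1 and 2 also differed from dish 3 in their trend with base composition. Genes with a GC content over 61.5% had a median log2 deviation from the 6-dish mean of -0.19, -0.11 and 0.10 in PD-L1 dishes 1 to 3, and of 0.15, 0.02 and 0.05 in Vector dishes 1 to 3.

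Promoter sequences are shown for the members whose upstream region carries the motif bound by repressors of the epithelial programme. SNAI and ZEB zinc-finger proteins and the E proteins bind E-boxes of the form CAGGTG. RefSeq windows (GRCh38.p14) were at hand for 5 of the 9 genes, CLDN1, CLDN7, OCLN, TJP1 and DSP, in 10 windows. In the 250 bases before the start, CAGGTG was searched on both strands (CACCTG on the other strand), a form of the wider E-box CANNTG. It was found in 5 of the 10 windows, against 17.5% of 35116 windows of the same length over all genes. These 5 windows belong to 4 of the 5 genes, and no share per gene was computed over all genes. The wider CANNTG was in 6 of the 10, against 61.8% of all windows. The GC content of the 10 windows ranged from 34.8 to 78.0%, beside a median of 58.0% over all windows. No match was found in the CLDN1 window, in the first CLDN7 window or in TJP1 windows 2 to 4. The first TJP1 window lies at chr15:29969050-29969299 on the minus strand, outside the exons of TJP1. The DSP stretch is chr6:7541421-7541574 on the plus strand, up to the first annotated exon, and holds 1 of the 2 DSP matches. Sites of 30 bases are shown for CLDN7 (chr17:7262479-7262508, minus strand) and OCLN (chr5:69492494-69492523 and chr5:69492637-69492666, plus strand), since these windows overlap exons of other transcripts of the same gene. Capitals mark the motif.
TJP1: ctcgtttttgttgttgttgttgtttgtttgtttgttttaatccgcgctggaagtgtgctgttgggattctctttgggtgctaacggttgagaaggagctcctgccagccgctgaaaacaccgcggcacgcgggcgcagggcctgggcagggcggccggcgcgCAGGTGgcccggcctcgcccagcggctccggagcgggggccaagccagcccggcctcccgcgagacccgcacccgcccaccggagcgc
DSP: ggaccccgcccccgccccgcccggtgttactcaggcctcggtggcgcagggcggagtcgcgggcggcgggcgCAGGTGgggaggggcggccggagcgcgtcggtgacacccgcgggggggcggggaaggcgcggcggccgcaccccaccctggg
CLDN7: tacatatactCAGGTGcgcccCACCTGtcc
OCLN first window: gccccctcccatccgagtttCAGGTGaatt
OCLN second window: ggagccggtctaggacgcagCAGGTGggac
The second CLDN7 window, whose 250 bases all lie in annotated CLDN7 exons, held 4 matches, and 0.464% of all windows held 3 or more. These matches describe the letters only, and no binding was measured.

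The 9 genes covered a wide range of expression, with plaque proteins abundant and CDH1, CLDN7, EPCAM and the splicing genes at low or trace levels. Levels between genes were compared as mean CPM per kilobase of the longest transcript over all 6 dishes. DSP stood highest at 19.0, followed by TJP1 at 8.60, OCLN at 3.41 and CLDN1 at 1.07. CLDN7 was at 0.476, CDH1 at 0.418, EPCAM at 0.204, ESRP2 at 0.150 and ESRP1 at 0.127. The ranges over the 6 dishes did not overlap between DSP, TJP1, OCLN, CLDN1 and CLDN7 taken in this order. From CLDN7 downwards each gene overlapped its next neighbour, so the order of these neighbours is not resolved, although CLDN7 and CDH1 lay wholly above ESRP2 and ESRP1. Among 19262 protein-coding genes with a known length, DSP ranked 3415 and TJP1 6068, while CDH1 ranked 12466 and ESRP1 13764.

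**Figure D1:**
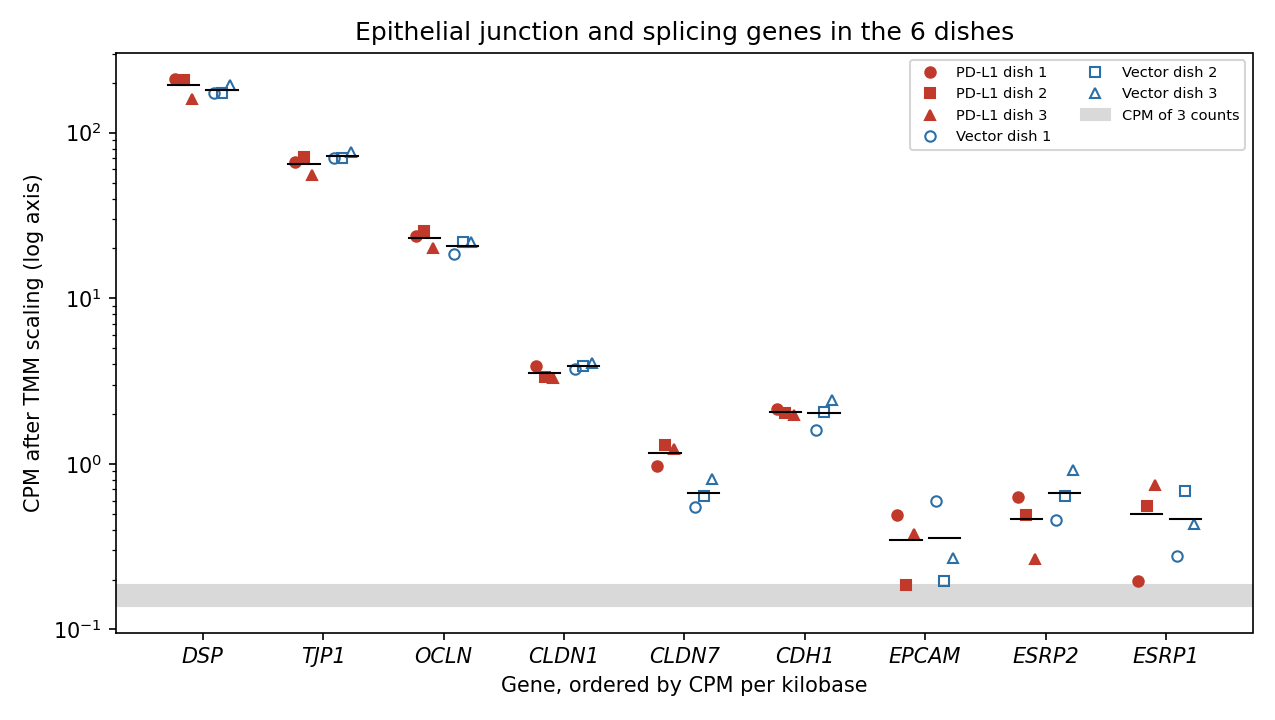
CPM of the 9 genes (x axis, ordered by CPM per kilobase) in each of the 6 dishes, on a log axis. Filled red symbols are PD-L1 dishes, open blue symbols Vector dishes, black lines group means, and the grey band is the CPM of 3 counts (0.138 to 0.185). DSP lies between 160 and 210 CPM and EPCAM between 0.185 and 0.598 CPM. CLDN7 is the only 1 of the 9 whose groups do not overlap.

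None of the 8 tested members passed the test between PD-L1 and Vector dishes. The edgeR quasi-likelihood test called 0 of 8, against the 8.75% called among all genes (1.55% higher, 7.2% lower). In that test 1 of the 8, CLDN7, had an unadjusted p under 0.05, as did 3735 of all 15818 genes tested. DESeq2 and limma-trend also called 0, as did the fit with the replicate number as a block (9.15% of all genes called) and that with the GC and length offset (13.7%). The CPM of the groups did not overlap for 1 of the 8, against 27.6% of all genes tested. EPCAM was below the low-count filter, and in a fit without that filter 0 of the 9 members passed (5.71% of 33317 genes did). Log2 fold changes (PD-L1 minus Vector) were positive for 5 and negative for 3 members, with a median of 0.06, beside 0.02 over all genes tested. Without PD-L1 dish 3 the test called 1 of 9 members, DSP, where 21.6% of all genes were called.

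**Figure D2:**
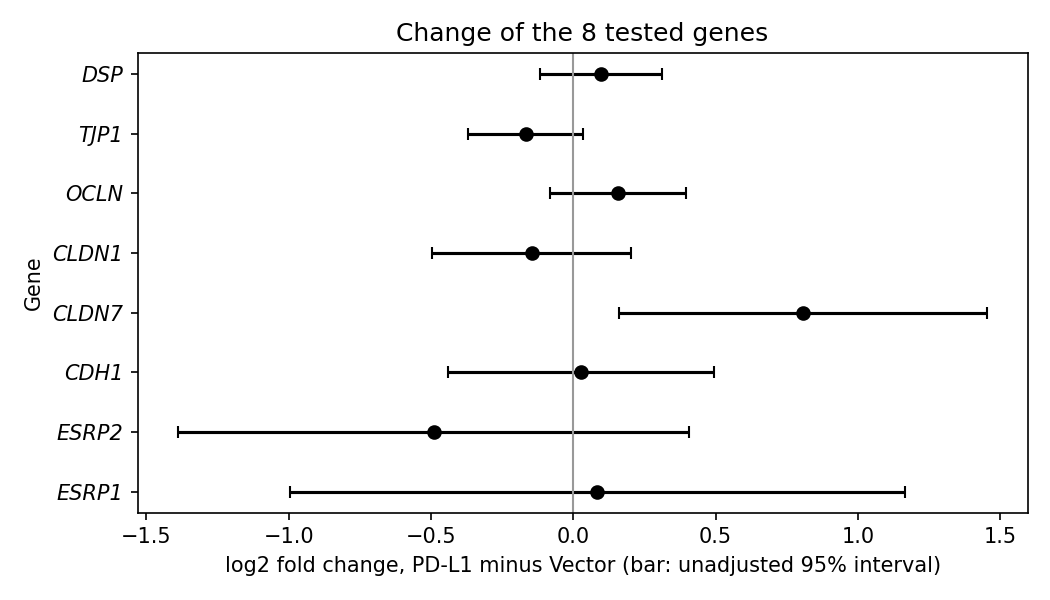
Log2 fold change (x axis, PD-L1 minus Vector, 3 dishes each) of the 8 tested genes, with unadjusted 95% intervals from the edgeR fit. The interval of CLDN7 runs from 0.16 to 1.45 and lies above 0, and the other 7 include 0. The narrowest interval is that of TJP1, and the widest is that of ESRP1, which has 4 to 14 reads per dish.

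DSP (ENSG00000096696), desmoplakin, anchors intermediate filaments to the desmosome. It had 4303, 3385 and 2992 reads in PD-L1 dishes 1 to 3 and 3778, 3531 and 3606 in Vector dishes 1 to 3. After scaling these were 210, 209 and 160 CPM against 174, 173 and 194 CPM. PD-L1 dishes 1 and 2 were thus the highest of the 6 dishes and PD-L1 dish 3 the lowest, and the groups overlapped. In edgeR the difference on the log2 scale was 0.10 ± 0.10 (SE), with a 95% interval of -0.12 to 0.31 (adjusted p = 0.589). Without PD-L1 dish 3 it was 0.21 ± 0.07, with an adjusted p of 0.0260. With the GC and length offset and without that dish, an alternative chosen after the data were seen, it was 0.23 with an adjusted p of 0.00410. The offset alone left DSP at 0.16 with an adjusted p of 0.101. It was 0.03 without PD-L1 dish 1 and 0.04 without PD-L1 dish 2, with adjusted p of 0.924 and 0.879.

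TJP1 (ENSG00000104067), the scaffold ZO-1, links tight and adherens junctions to actin and is widely expressed outside epithelia. Its CPM were 66.7, 71.2 and 55.4 in PD-L1 dishes and 70.0, 70.8 and 76.3 in Vector dishes, from 1035 to 1522 reads per dish. PD-L1 dish 3 was again the lowest of all 6, PD-L1 dish 1 lay below the Vector range, and PD-L1 dish 2 lay within it. The log2 fold change was -0.17 ± 0.09, with a 95% interval of -0.37 to 0.03 and an adjusted p of 0.301. It was -0.07 without PD-L1 dish 3 and -0.24 without PD-L1 dish 2, and it was not called in any of the alternatives.

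OCLN (ENSG00000197822), occludin, is a membrane protein of the tight junction strand. PD-L1 dishes had 23.7, 25.6 and 20.1 CPM and Vector dishes 18.5, 21.9 and 21.8 CPM. PD-L1 dishes 1 and 2 were above every Vector dish, and dish 3 fell inside the Vector range. The log2 fold change was 0.16 ± 0.11 (95% interval -0.08 to 0.40, adjusted p = 0.420). It ranged from 0.08 without Vector dish 1 (adjusted p = 0.811) or without PD-L1 dish 2 (0.773) to 0.25 without PD-L1 dish 3 (0.0819). Among PD-L1 dishes, 6 of the 9 members (DSP, TJP1, OCLN, CDH1, CLDN1 and ESRP2) were lowest in dish 3, and the GC content of their longest transcripts ranges from 39.9 to 59.6%. The share of all genes lowest in that dish was not computed. The margin to dish 2 was small for CLDN1 (3.32 against 3.33 CPM) and CDH1 (1.98 against 2.03 CPM). OCLN has a copy annotated as OCLNP1, with 1 to 4 reads per dish, and the sources used here do not say how reads shared with it were counted.

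The claudins form the paracellular seal of tight junctions. CLDN1 (ENSG00000163347), a barrier claudin, had 3.90, 3.33 and 3.32 CPM in PD-L1 and 3.73, 3.91 and 4.09 CPM in Vector dishes, from 54 to 81 reads. The groups overlapped through PD-L1 dish 1, and the log2 fold change was -0.15 ± 0.16 (adjusted p = 0.627, 95% interval -0.50 to 0.20). CLDN7 (ENSG00000181885), a claudin of epithelial basolateral membranes, had 20, 21 and 23 reads in PD-L1 dishes against 12, 13 and 15 in Vector dishes. These are 0.976, 1.29 and 1.23 CPM against 0.552, 0.636 and 0.807 CPM. Every PD-L1 dish lay above every Vector dish, which 12.1% of all tested genes also showed. Its log2 fold change was 0.81 ± 0.30, with an unadjusted p of 0.0182 and an adjusted p of 0.119 in edgeR.

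CLDN7 had the largest log2 fold change of the 8 tested members, but it passed the test in none of the alternatives. The adjusted p ranged from 0.0700 with the GC and length offset to 0.356 without Vector dish 1, and the log2 fold change from 0.68 to 0.95. Permuting the 6 dishes over CPM (exact, two-sided) gave p = 0.1, the lowest value open to 3 against 3. Summed over dishes, 64 PD-L1 and 40 Vector reads gave a depth-scaled ratio of 1.75 (95% interval 1.16 to 2.67, exact binomial, counting error only). Such an interval also excluded 1 for TJP1 (0.851 to 0.930), OCLN (1.03 to 1.21) and DSP (1.04 to 1.10), all uncalled with the 6 dishes. It included 1 for CDH1, CLDN1, EPCAM, ESRP1 and ESRP2. CLDN7 shares 38 exon bases with ELP5 on the opposite strand, a gene with 1350 to 1972 reads per dish. It shares 269 with AC003688.1 on the same strand, which had 0 reads in every dish. A copy annotated as CLDN7P1 had 0 to 1 reads per dish. Libraries kept no strand information, and reads from such an overlap cannot be told apart.

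CDH1 (ENSG00000039068), E-cadherin, is the adhesion receptor of epithelial adherens junctions. It had 44, 33 and 37 reads in PD-L1 and 35, 42 and 45 in Vector dishes. Its CPM were 2.15, 2.03 and 1.98 against 1.61, 2.05 and 2.42, so the 3 PD-L1 values fell within the Vector range. The log2 fold change was 0.03 ± 0.22, with a 95% interval from -0.44 to 0.50 and an adjusted p of 0.957. EPCAM (ENSG00000119888), an epithelial surface adhesion protein that associates with CLDN7, had 10, 3 and 7 reads in PD-L1 and 13, 4 and 5 in Vector dishes. Both groups summed to nearly the same rate, with a ratio of 0.997 (95% counting interval 0.516 to 1.91). PD-L1 dish 2 was at 3 reads, the level taken as the floor. The interval covers counting error only, so it does not bound the difference that could be missed at this depth. In the fit without the low-count filter the log2 fold change of EPCAM was -0.03 ± 0.55.

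ESRP1 and ESRP2, the epithelial splicing regulators, were at similar trace levels. ESRP1 (ENSG00000104413) had 4, 9 and 14 reads in PD-L1 and 6, 14 and 8 in Vector dishes, or 0.195, 0.555 and 0.750 CPM against 0.276, 0.684 and 0.431 CPM. Its values overlapped fully, and the log2 fold change of 0.08 ± 0.50 had a 95% interval from -0.997 to 1.17. ESRP2 (ENSG00000103067) had 13, 8 and 5 reads in PD-L1 and 10, 13 and 17 in Vector dishes. The log2 fold change was -0.49 ± 0.42, with an adjusted p of 0.512, and ranged from -0.81 without PD-L1 dish 1 to -0.21 without PD-L1 dish 3. The 26 PD-L1 and 40 Vector reads gave a ratio of 0.713 (95% counting interval 0.418 to 1.197). ESRP2 shares 2.68% of its exon bases with NFATC3 on the opposite strand, which had 431 to 605 reads per dish, and reads from the shared bases cannot be told apart.

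The partners of these members were read against the same shares over all genes tested, 7.2% lower and 1.55% higher. In the adherens junction list 3 of 17 tested genes fell and 1 rose, and without PD-L1 dish 3 (21.6% of all genes called) 4 were lower and 2 higher. The median of its log2 differences was -0.15, beside 0.02 over all genes tested. The neural cadherin CDH2 fell from 72.6 ± 3.02 to 53.2 ± 3.29 CPM (adjusted p = 0.00347), and in CPM per kilobase it stood at 14.5, against 0.418 for CDH1. R-cadherin, CDH4, fell by 1.03 and the mesenchymal cadherin CDH11 by 0.91 on the log2 scale (adjusted p = 8.49e-05 and 1.72e-04). CDH2, CDH4 and CDH11 were called in all 16 alternatives. NECTIN4, a nectin of epithelia, rose from 10.1 ± 1.55 to 14.9 ± 0.94 CPM (adjusted p = 0.0128). NECTIN4 was no longer called when Vector dish 1 (adjusted p = 0.0746) or 2 (0.0569) or PD-L1 dish 2 (0.0534) was left out. The catenins CTNNB1 and CTNNA1, which couple cadherins to actin, were at -0.01 and -0.13 on the log2 scale (adjusted p = 0.961 and 0.253, named after their values were seen).

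**Figure D3:**
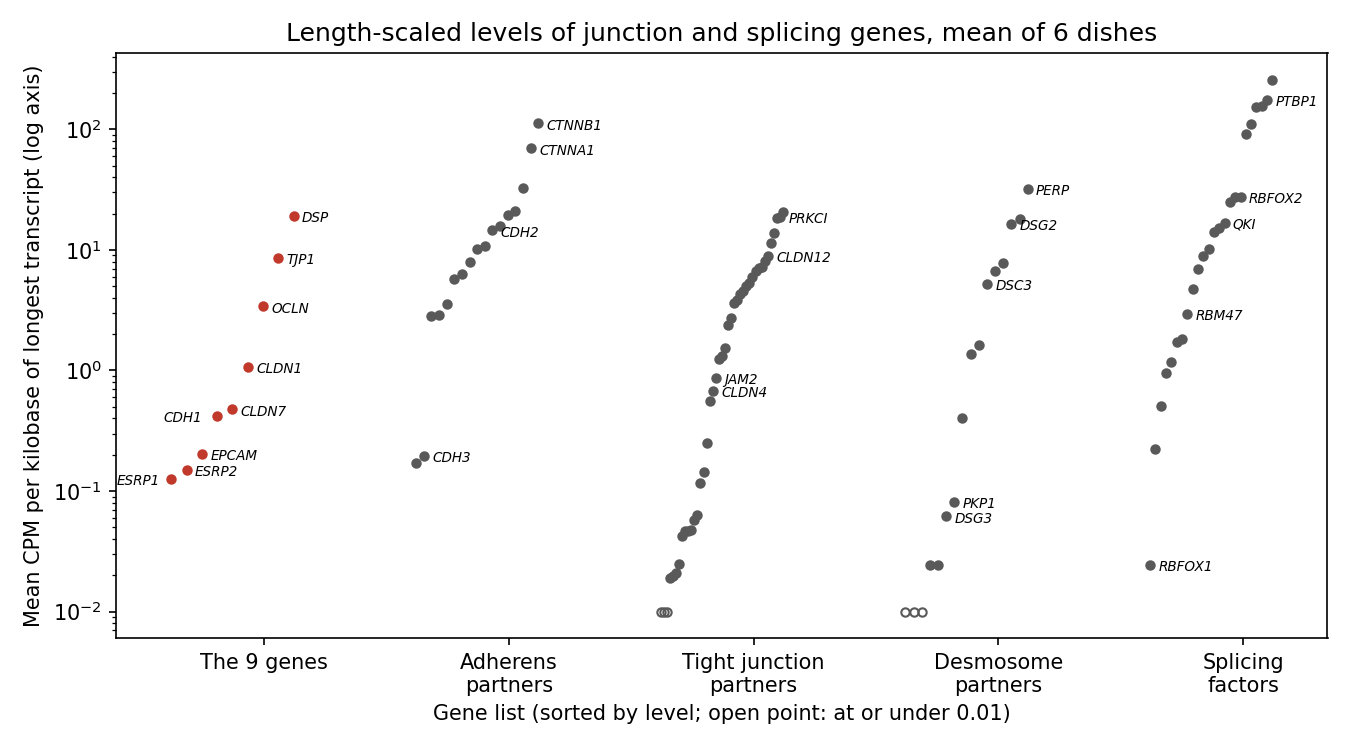
Mean CPM per kilobase of the longest transcript over 6 dishes (y axis, log scale) of the 9 genes (red) and of the genes of 4 lists (grey), each sorted by level. Open points are at or under 0.01. DSP at 19.0 lies among the abundant desmosome genes such as DSG2 at 16.4, while CDH1 at 0.418 lies far below CDH2 at 14.5.

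In the tight junction list, 27 of 41 genes had enough reads to be tested. JAM2, a junctional adhesion molecule, fell from 4.55 ± 0.65 to 2.99 ± 0.11 CPM (adjusted p = 0.0431) and 0 rose. JAM2 did not pass when Vector dish 1 (0.196) or 3 (0.105) or PD-L1 dish 1 (0.144) or 2 (0.138) was left out, with upper-quartile scaling (0.0529) and in DESeq2 (0.0807). The abundant PRKCI (atypical protein kinase C) and JAM3 differed by 0.03 and -0.05 on the log2 scale (adjusted p = 0.824 and 0.756). JAM3 shares 8.53% of its exon bases with NCAPD3 on the opposite strand. CLDN8 had 0 reads in all 6 dishes. Among claudins the highest, named after values were seen, were CLDN12 and CLDN15, with 8.87 and 7.12 CPM per kilobase, above CLDN1 and CLDN7. PATJ, at 0.27 (adjusted p = 0.0686), was called higher with upper-quartile scaling and with the GC and length offset (13.7% of all genes called). TJP3, at -0.84 (adjusted p = 0.0586), was called lower without the low-count filter (5.71% of all genes called). Both were named after their values were seen. Without PD-L1 dish 3, 2 members of the 27 were higher and 3 lower, where 21.6% of all genes were called.

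In the desmosome list, the partners of DSP, 0 of 9 tested genes were called by edgeR, DESeq2 or limma-trend. In edgeR 2 of the 9 had an unadjusted p under 0.05, as did 3735 of all 15818 genes tested. The desmosomal cadherin DSG2, the plaque protein JUP (plakoglobin) and the membrane protein PERP stood at 16.4, 18.2 and 32.0 CPM per kilobase. On the log2 scale they differed by -0.08, 0.03 and 0.08 (adjusted p from 0.547 to 0.886). The median of the list was 0.08. Without PD-L1 dish 3, 3 of 10 tested members (PKP2, DSC2 and DSC3) were higher and 1 (PKP3) lower, all named after their values were seen, against 21.6% of all genes called in that setting. DSC3, at 0.33 (adjusted p = 0.0766), also passed with upper-quartile scaling, without the low-count filter and under the GC and length offset. The remaining 7 genes of the list were below the low-count filter, among them the keratinocyte desmosome genes PKP1 and DSG3 at 0.0819 and 0.0616 CPM per kilobase (named after their values were seen).

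In the list of epithelial programme genes 1 of 16 tested members rose and 0 fell (1.55% and 7.2% over all genes). EHF, an epithelial ETS factor, had 1.51, 2.46 and 2.14 CPM in PD-L1 and 1.06, 0.880 and 0.915 CPM in Vector dishes, with no overlap. The log2 fold change was 1.08 ± 0.27 (adjusted p = 0.0223). EHF missed the threshold if any Vector dish (0.0678, 0.0710 and 0.0647 without dishes 1, 2 and 3) or PD-L1 dish 2 (0.102) was dropped. The abundant members KRT8 (a simple-epithelium keratin), CDS1 and KLF5 were at -0.18, 0.09 and -0.26 on that scale (adjusted p = 0.266, 0.625 and 0.179). TMEM30B had 0 reads in every dish, and CD24 had no matching ID. Without PD-L1 dish 3, EHF was higher and KRT8 and KRT19 lower of 17 tested, where 21.6% of all genes were called. Without Vector dish 3, S100A14 was lower of 17 tested, where 965 of 16246 genes were called. KRT19 and S100A14 were named after their values were seen.

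Of the splicing factors linked to the epithelial-mesenchymal switch, 3 of 23 tested fell and 0 rose (7.2% and 1.55% over all genes). The median was -0.03, and 0.01 with upper-quartile scaling. RBM24, an RNA-binding factor of muscle, fell from 4.13 ± 0.46 to 2.20 ± 0.31 CPM (adjusted p = 0.00909) and was called in all 15 alternatives that tested it. NOVA2, a neuronal splicing factor, fell by 0.75 (adjusted p = 0.0339), and MBNL2, a muscleblind factor, by 0.32 (adjusted p = 0.0488) on the log2 scale. NOVA2 was lost on dropping Vector dish 1 (0.179) or 3 (0.0899) or PD-L1 dish 1 (0.154). MBNL2 was lost on dropping any dish but PD-L1 dish 3 (adjusted p from 0.0640 to 0.159), with relative log expression scaling (0.0502), with upper-quartile scaling (0.0707) and with a mean of at least 5 CPM (0.0592). Dropping PD-L1 dish 3 gave 4 higher and 3 lower members, with 21.6% of all genes called. The mesenchymal splicing regulators RBFOX2 and QKI, named after their values were seen, stood at 27.5 and 16.8 CPM per kilobase, against 0.127 for ESRP1. Both were uncalled, at -0.10 and 0.05 on the log2 scale (adjusted p = 0.447 and 0.787).

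Among 18 genes with exons that ESRPs regulate, 2 fell and 0 rose (7.2% and 1.55% over all genes), with a median of -0.07. CD44, a receptor for hyaluronan, had 185, 209 and 231 CPM in PD-L1 and 459, 380 and 412 CPM in Vector dishes (adjusted p = 4.91e-05). The laminin receptor chain ITGA6 fell by 0.83 ± 0.08 on the log2 scale (adjusted p = 5.23e-05). Neither overlapped between groups, and both were called in all 16 alternatives. The list held 4 higher and 3 lower members once PD-L1 dish 3 was dropped, where 21.6% of all genes were called. Gene counts hold no information on exon choice, so the isoforms of these genes were not measured. In the list of CDH1 repressors 2 of 11 tested fell and 0 rose, against 7.2% and 1.55% over all genes, with a median of -0.06. SNAI2 (Slug) fell by 0.47 (adjusted p = 0.0195) and the E protein TCF3 by 0.30 (adjusted p = 0.0383), while CDH1 itself was at 0.03. SNAI2 missed the threshold when PD-L1 dish 1 (0.0835) or Vector dish 1 (0.123) was dropped. TCF3 missed it when Vector dish 1 (0.199) or 3 (0.0811) or PD-L1 dish 1 (0.204) or 2 (0.106) was dropped, with upper-quartile scaling (0.0569) and with the GC and length offset (0.0621, where the value was -0.15).

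**Figure D4:**
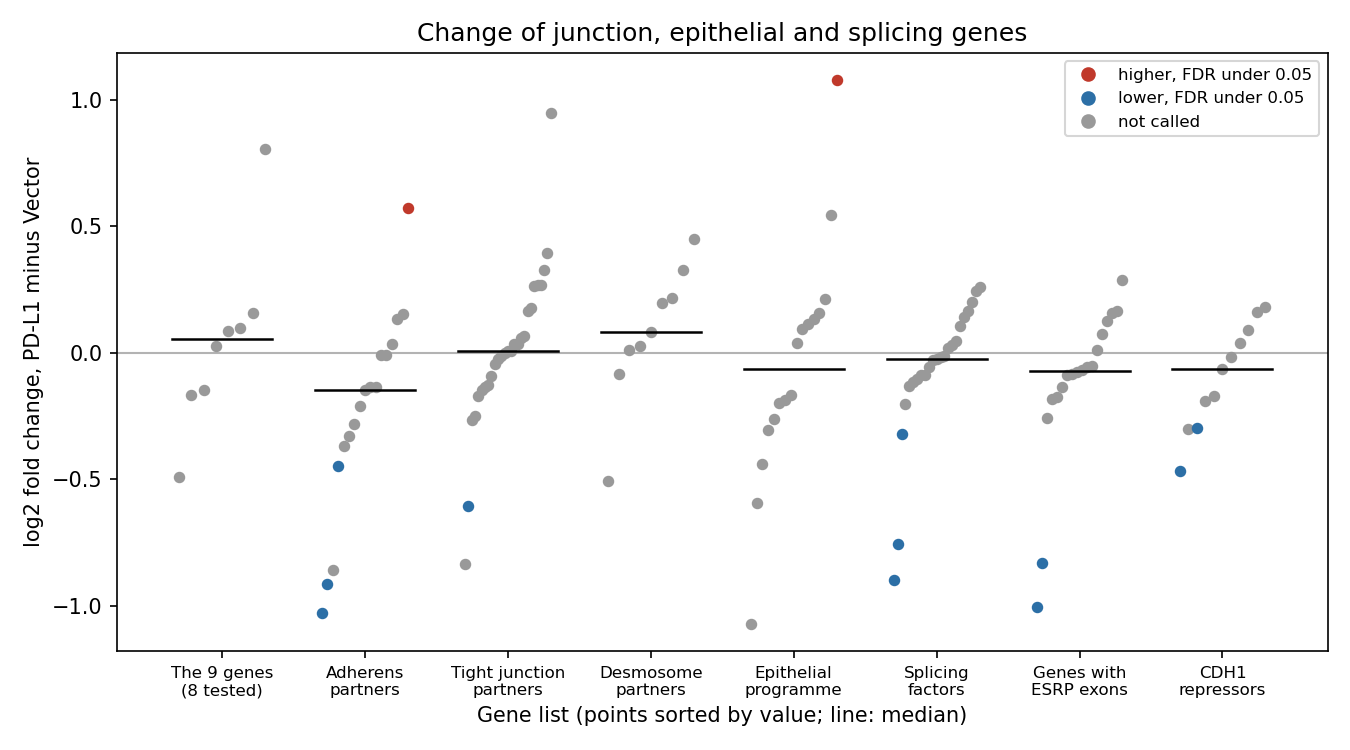
Log2 fold change (y axis, PD-L1 minus Vector, 3 dishes each) of every tested gene of the 9 and of 7 lists, sorted by value within a list, with the list median as a line. Red points rose and blue points fell at an FDR under 0.05 in edgeR, and grey points were not called. The 8 tested members are all grey, and the lowest points of the adherens junction list are CDH4 and CDH11.

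Markers of other cell types were read beside these genes, against the same shares over all genes tested, 7.2% lower and 1.55% higher. Calls among all genes in either direction, 8.75% here, rose to 13.7% under the GC and length offset and to 21.6% without PD-L1 dish 3. They fell to 641 of 16094 genes without PD-L1 dish 1 and to 745 of 16171 without PD-L1 dish 2. Leaving out Vector dish 1 gave 545 of 16150, and leaving out Vector dish 3 gave 965 of 16246. The keratinocyte and epithelial markers summed to 150 to 232 CPM in PD-L1 and 358 to 434 CPM in Vector dishes, with 3 of 7 tested members lower (KRT14, KRT6A and SFN) and 0 higher. SFN was not called on dropping PD-L1 dish 1 or 2. Glial markers summed to 90.5 to 119 against 130 to 161 CPM, with 3 of 5 tested members lower, 2 on dropping Vector dish 3 or PD-L1 dish 1 or 2, and 1 on dropping Vector dish 1. Mesenchymal markers were lower as well, with 6 of 6 called and sums of 974 to 1160 against 1800 to 2777 CPM. Their calls fell to 4 of 6 under the GC and length offset, or on leaving out any 1 PD-L1 dish or Vector dish 3. With that offset and PD-L1 dish 3 left out together, 3 of 6 were called. Endothelial markers summed to 3.20 to 3.96 against 4.94 to 5.98 CPM, with 2 of 3 tested lower. The other 1 had a positive log2 fold change and was not called. Only 1 was called lower in DESeq2, or on dropping either Vector dish 1 or 3, or PD-L1 dish 1 or 2. Oligodendrocyte markers summed to 5.19 to 6.20 against 7.81 to 9.68 CPM, but 5 of the 6 were below the low-count filter. The 1 tested was called lower, and was not called on dropping PD-L1 dish 2 or Vector dish 2. Immune markers were near 0, at 0.535 to 1.22 and 0.831 to 1.67 CPM, with 0 of 6 reaching the filter. No matched marker of these 6 lists was at 0 in every dish. In bulk dishes, fewer cells with a transcript and less transcript per cell cannot be told apart, and the part of these markers in the values above was not tested.

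As a description, the genes whose log2 CPM followed a member most closely over the 6 dishes were ranked by Pearson correlation among 14949 genes with a symbol. For DSP these were UBR2, TGFBRAP1 and PROSER1 (r = 0.999, 0.998 and 0.998), with 544 genes above 0.9. The closest to OCLN were KLHL8, MTDH and SBNO1 (0.992, 0.991 and 0.990, with 550 genes above 0.9). TJP1 was followed most closely by CNTNAP3B and E2F8 (0.993 and 0.991, with 208 genes above 0.9), and CDH1 by KIAA0825, MYCL and PTGER2 (0.990, 0.988 and 0.985, with 49 genes above 0.9). All values come from the same 6 libraries, and these coefficients carry no test.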

How the data were processed

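Counts of 6 dishes were analysed, 3 with PD-L1 and 3 with vector, grouped and numbered by their titles. Libraries were made from 3 µg of RNA after poly-T selection with a kit that keeps no strand information, per the labels' protocols. The submitters' processing notes name CASAVA 1.8, STAR 2.5.1b, HTSeq 0.6.0 and build hg19. Annotation, strand setting and read filters: not given in the sources used here. Raw counts per Ensembl gene were deposited by the authors, and so was a normalized signal, which differed from the counts by a constant factor in each dish.

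Raw counts were tested in R 4.3.3 with edgeR 4.0.16 (filterByExpr, TMM, robust quasi-likelihood, no covariates). P-values were adjusted by Benjamini-Hochberg over all 15818 genes tested, at an FDR of 0.05, and standard errors follow from each fold change and its F. Alternatives were other scalings, DESeq2 1.42.0, limma-trend (limma 3.58.1) on log2 of the authors' deposited normalized value plus 1, other filters, the replicate block, the GC and length offset (splines, 5 degrees of freedom), and leaving out each dish. Symbols came from a gene name table and GENCODE 29. Its build differs from that of the files, so it gave only names, lengths, GC content and overlaps. Intervals on summed counts cover counting error only. The method was tested on simulated data, where the share of false calls was above the nominal FDR, so calls near the threshold are less certain than their adjusted p states.

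The 9 members and the lists were chosen with earlier results of these data known. All members were named, and of each list up to 5 called members with the smallest FDR, or where fewer than 2 passed also the 3 most abundant. For members with a mean of at least 1 CPM the 3 most alike genes were ranked, and those of CLDN1 are not reported. The values of 2 further genes that these rules would name are not reported here, and every count still includes them. Python 3.11.15, pandas 2.3.3 and matplotlib 3.10.9 made the tables and plots.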

Additional observations from a re-analysis of the deposited data

How the results depend on the processing

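Among all genes, 1384 calls became 2170 with the GC and length offset, 530 at an FDR of 0.01, and 545 to 3512 when 1 dish was left out, the highest without PD-L1 dish 3. With the offset and without that dish, added after the data were seen, there were 3472. The count of members called was 0 in the main comparison, 0 to 1 when 1 dish was left out, and 1 with the offset and without PD-L1 dish 3, each time DSP. With 1 dish left out, the log2 fold change of CDH1 ranged from -0.12 to 0.16 and that of ESRP1 from -0.37 to 0.50, so their sign depends on 1 dish. The cause was not tested. The change of CDH1 turned negative on dropping PD-L1 dish 1 (-0.0074) or Vector dish 1 (-0.12). For ESRP1 it did so on dropping PD-L1 dish 3 (-0.37) or Vector dish 1 (-0.20), and with the offset and without PD-L1 dish 3 (-0.42). The other 6 tested members kept their direction in all alternatives that tested them. Dishes with the same replicate number did not deviate together (correlations of -0.21, -0.05 and -0.19, beside -0.08 to 0.23 for the other pairs). Whether dishes of the same number shared a day or batch was not tested. With the replicate block 1447 genes and 0 members were called, and JAM2 (adjusted p = 0.0506), MBNL2 (0.0873) and TCF3 (0.0725) lost their calls. With the block and the offset together JAM2 (0.0567), NOVA2 (0.0802) and TCF3 (0.201) were not called. ESRP2 was at -0.05 with the offset and without PD-L1 dish 3. With exons merged in place of the longest transcript, the length-scaled levels of TJP1 and CDH1 were 6.07 and 0.330. At 3 to 17 reads per dish, EPCAM, ESRP1 and ESRP2 are limited by depth.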

Other observations

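Some keratinocyte genes that were not among the 9 varied between dishes of the same group. KRT5, a basal keratin, was at 27.0, 3.20 and 4.60 CPM in PD-L1 dishes 1 to 3 and at 12.2, 36.7 and 9.64 CPM in Vector dishes 1 to 3. PKP1, a desmosomal plaque protein of stratified epithelia, had 18, 2 and 3 reads in PD-L1 and 2, 28 and 1 in Vector dishes, and the desmoglein DSG3 had 17, 5 and 2 against 2, 10 and 4. PD-L1 dish 1 and Vector dish 2 were the highest of their group for these 3 genes, and they also had the most genes with a read, 25808 and 25485. The summed keratinocyte and epithelial markers, KRT5 included, had another order among PD-L1 dishes, at 189, 150 and 232 CPM in dishes 1 to 3. EPCAM differed from KRT5 among Vector dishes, with its highest value of 13 reads in dish 1. CLDN4 was at 1.42, 2.22 and 4.39 CPM in PD-L1 dishes, a wider range than the 2.88 to 2.99 CPM of the Vector dishes. These genes were chosen after their values were seen.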
